A study of Mus musculus with 13 samples.

Results

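The 9 genes described here, Cd79a, Cd79b, Ms4a1, Cd22, Pax5, Ebf1, Pou2af1, Blk and Blnk, were chosen by name as genes of the B cell lineage, and each has a row among the 43629 genes of the deposited mouse RNA sequencing table. Their levels were read in 13 libraries of T cell lymphoma or thymus. These came from 5 Atm-/- thymic lymphomas of 129S6/SvEv mice, 5 Rag2c/c p53-/- thymic lymphomas of mice on a mixed background of C57BL/6 and 129S6/SvEv, and 3 wild-type (WT) thymuses of C57BL/6 mice. Atm-/- mice lack the ATM kinase, which signals DNA breaks, and Rag2c/c p53-/- mice lack p53 and make a RAG2 protein without its C terminus. Each library is from a different mouse, and RNA was taken from single-cell suspensions of thymus or tumor, with no sort mentioned. A source field of the labels calls the WT samples lymphoma, but their tissue, genotype and title give WT thymus, which was used. The ages of the mice are not given in the sources used here. The WT libraries were re-used from another series, so strain, series and genotype cannot be told apart in any comparison with WT thymus, nor can strain and genotype between the lymphomas.

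B cells arise in the bone marrow under EBF1 and PAX5, the transcription factors that switch on B lineage genes and hold other fates off. Their antigen receptor signals through CD79A and CD79B, which pass the signal to SRC family kinases such as BLK and to the adaptor BLNK. The thymus is mainly an organ of T cells, but it also holds a small number of B cells, and some genes first described in B cells are read in T cells or plasmacytoid dendritic cells as well.

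RefSeq promoters (250 bases before to 50 after a start, GRCm38.p6) were given for 6 of the 9 genes, 7 promoters in all. They are shown to set the promoter of Cd79a, a gene called lower in both lymphoma groups, beside that of Pou2af1. Pou2af1 was the 1 gene of the 9 called between the lymphoma groups, a call lost without some single libraries. Also shown are the matches of the octamer ATGCAAAT and of the EBF core CCCNNGGG found in any promoter of the 9 genes. Both motifs were searched on both strands, and the capitals mark the match.
Cd79a, + strand, chr7:24897247-24897380, before the first base of the gene in the table: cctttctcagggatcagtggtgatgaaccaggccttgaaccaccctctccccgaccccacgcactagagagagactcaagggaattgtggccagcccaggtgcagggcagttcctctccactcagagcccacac
Pou2af1, + strand, chr9:51213440-51213689, before the first base of the gene in the table: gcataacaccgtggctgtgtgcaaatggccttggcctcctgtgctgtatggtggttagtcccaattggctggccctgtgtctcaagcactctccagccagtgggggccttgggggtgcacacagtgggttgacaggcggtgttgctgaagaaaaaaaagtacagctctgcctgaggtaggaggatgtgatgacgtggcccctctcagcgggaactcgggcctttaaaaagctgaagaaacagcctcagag
Blnk, - strand, chr19:40994333-40994362, around the octamer read on the other strand: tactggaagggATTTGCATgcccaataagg
Cd22, - strand, chr7:30879058-30879087, around the EBF core: tcctgcaagatCCCTGGGGactcacacaga
The octamer, the site bound by OCT factors to which the POU2AF1 protein attaches, was found in the Blnk promoter alone among the 7, with its first base 130 bases before the start. An exact match of the EBF core was found in the Cd22 promoter alone among the 7, 48 bases before the start. Sites that differ from the searched letters were not looked for, so a promoter without a match may still hold an EBF site. Of all 32851 promoters of 300 bases, 1.74% held the octamer and 13.7% the EBF core. By GENCODE vM21 the Blnk stretch lies in an untranslated part of an exon of Blnk and the Cd22 stretch in an intron of Cd22, since the starts in that annotation lie further out, and the Cd79a and Pou2af1 stretches lie outside annotated genes. These are matches of letters in a short window and were not tied to binding.

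Values are normalized read counts, that is reads divided by a size factor of the library and rounded to whole numbers. The steps between low values put the depth at 6.81 to 39.58 M reads in WT thymus, 9.25 to 23.64 M in Atm-/- lymphomas and 6.37 to 24.77 M in Rag2c/c p53-/- lymphomas. A read was worth 0.5 to 3.375 normalized counts, the most in WT replicate 2 and Rag2c/c p53-/- replicate 2, so low values in these libraries rest on few reads. Atm was at 208 to 732 in Atm-/- lymphomas against 1559 to 2274 in WT thymus, and at 439 to 1315 in Rag2c/c p53-/- lymphomas, which overlapped the Atm-/- values and were also below every thymus. Rag2 and Trp53 were above 0 in every Rag2c/c p53-/- lymphoma (260 to 790 and 2018 to 5461), and a count over a whole gene does not check a deletion or truncation inside it. The T cell label fitted the markers, since Cd3e was at 7309 to 18552 and Lck at 15165 to 30142 in all 13 libraries.

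Cd79a, Cd79b, Ms4a1 and Ebf1 were lower than in WT thymus in both kinds of lymphoma. Blnk also fell in Atm-/- lymphomas, and Pax5 in Rag2c/c p53-/- lymphomas. In bulk tissue such as this, fewer cells of a type and less RNA per cell cannot be told apart. A gene was called when its adjusted p in limma was under 0.05, its log2 difference at least 1 and its mean at least 10 in a group compared. The 5 of 9 members called lower in Atm-/- lymphomas stand beside 17% of the 15872 genes tested. The 5 of 9 in Rag2c/c p53-/- lymphomas stand beside 13.9%. None was called higher in either group, beside 12.6% and 9.77% of all genes. The median log2 difference of the 9 members from WT thymus was -1.81 for Atm-/- lymphomas and -1.70 for Rag2c/c p53-/- lymphomas, against -0.019 and -0.018 over all genes tested. These comparisons share the 3 WT libraries, so their likeness is not independent.

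**Figure D1:**
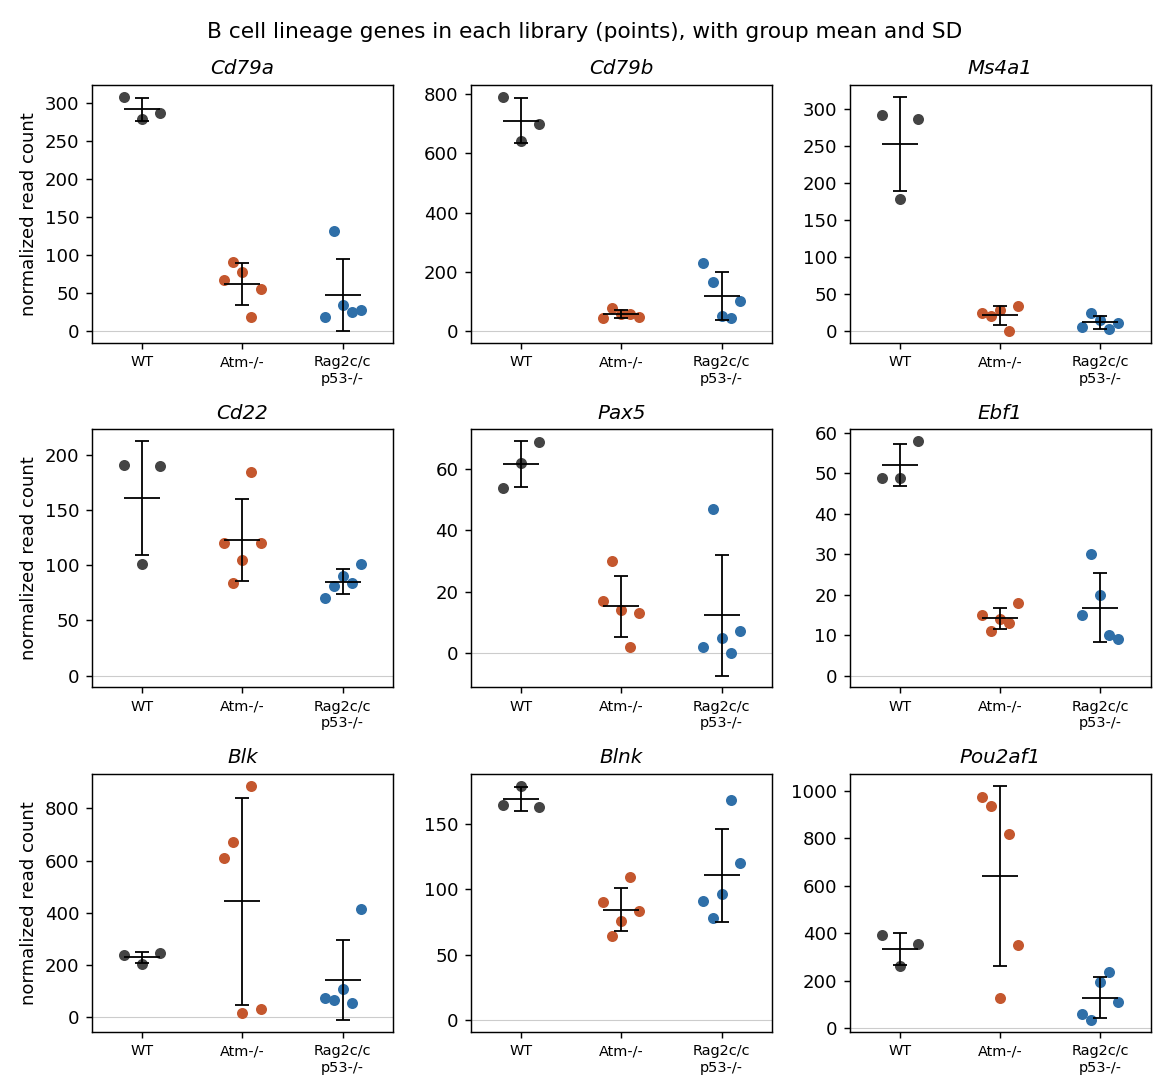
Normalized read count (vertical axis) of each B cell lineage gene in the 3 WT thymuses, 5 Atm-/- and 5 Rag2c/c p53-/- lymphomas. Points are libraries, and bars give the group mean and SD. Cd79a, Cd79b, Ms4a1, Pax5 and Ebf1 are below all WT values in all 10 lymphomas, while Blk and Pou2af1 spread widely among the Atm-/- lymphomas.

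Every library of a lymphoma group lay below every WT library for 6 of 9 members in Atm-/- lymphomas, beside 27.9% of all genes tested. The same held for 6 of 9 in Rag2c/c p53-/- lymphomas, beside 24.2%. No member had every lymphoma above every thymus, beside 23.4% of all genes in the former group and 19.7% in the latter. Cd79a, Cd79b, Ms4a1, Pax5 and Ebf1 were among the 6 in each group, with Blnk the remaining member in Atm-/- and Pou2af1 in Rag2c/c p53-/- lymphomas. For each of these the two-sided exact permutation test gave p = 0.0357, the smallest that 5 against 3 libraries allow, and an adjusted p of 0.0742 over the 27 tests made. By this test 0 of 9 members had an adjusted p under 0.05 in any comparison. Against WT a p of 0.0357 passes 0.05 after adjustment only if most of the 27 tests are as low. The 0 of 9 against WT was thus largely set by the number of libraries and tests. At an unadjusted p under 0.05 there were 6, 6 and 2 of 9 in Atm-/- against WT, Rag2c/c p53-/- against WT and Atm-/- against Rag2c/c p53-/-.

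Among the receptor subunits, Cd79a (ENSMUSG00000003379, chromosome 7, 24897381 to 24902197), the Ig-alpha chain, was at 308, 279 and 287 in the WT thymuses. It was at 67, 91, 78, 19 and 56 in the Atm-/- and at 19, 132, 34, 26 and 28 in the Rag2c/c p53-/- lymphomas. All 10 lymphomas lay below the lowest thymus, and Rag2c/c p53-/- replicate 2 was the highest of them. The means were 291 ± 15.0 (SD, n = 3), 62.2 ± 27.4 (SD, n = 5) and 47.8 ± 47.4 (SD, n = 5). Cd79a fell by 2.38 on the log2 scale in Atm-/- lymphomas (SE 0.60, limma adjusted p = 0.00598). In Rag2c/c p53-/- lymphomas it fell by 2.97 (SE 0.60, limma adjusted p = 0.00197).

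Cd79b (ENSMUSG00000040592, chromosome 11, 106311341 to 106314762), the Ig-beta chain, was at 791, 640 and 699 in the WT thymuses. It was at 44, 78, 57, 56 and 48 in the Atm-/- lymphomas and at 231, 165, 50, 43 and 102 in the Rag2c/c p53-/- lymphomas. The Atm-/- values lay within a narrow band, while Rag2c/c p53-/- replicates 1, 2 and 5 stood above every Atm-/- lymphoma without reaching a thymus. Cd79b fell by 3.65 in Atm-/- (SE 0.48, limma adjusted p = 7.91e-05) and fell by 2.86 in Rag2c/c p53-/- lymphomas (SE 0.48, limma adjusted p = 0.000634). The difference between the lymphomas was -0.79 for Atm-/- minus Rag2c/c p53-/- (95% interval -1.69 to 0.11, limma adjusted p = 0.253). The lymphoma with most Cd79b was not that with most Cd79a, as Rag2c/c p53-/- replicate 1 had 231 of the former and 19 of the latter.

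Of the surface proteins, Ms4a1 (ENSMUSG00000024673, chromosome 19, 11249675 to 11266241) encodes CD20, found on most mature B cells. Its values were 293, 179 and 287 in the WT thymuses, 24, 21, 28, 0 and 34 in the Atm-/- lymphomas and 5, 24, 15, 3 and 11 in the Rag2c/c p53-/- lymphomas. No lymphoma exceeded 34, and Atm-/- replicate 4 was at 0, where a count of 0 allows up to 3 reads or a value of 5.63. Ms4a1 fell by 4.14 in Atm-/- (95% interval -6.29 to -1.98, limma adjusted p = 0.00484) and fell by 4.59 in Rag2c/c p53-/- lymphomas (95% interval -6.74 to -2.44, limma adjusted p = 0.00326). Without Atm-/- replicate 4, the library at 0, the difference in Atm-/- lymphomas was -3.18 (limma adjusted p = 0.00107). Estimated reads behind the lymphoma values ran from 0 to 34.7, so differences among single lymphomas rest on few reads.

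Cd22 (ENSMUSG00000030577, chromosome 7, 30865402 to 30880342), an inhibitory receptor that damps B cell signals, was not called in any comparison. It was at 191, 101 and 190 in the WT thymuses, at 120, 84, 105, 184 and 120 in the Atm-/- lymphomas and at 70, 81, 90, 84 and 101 in the Rag2c/c p53-/- lymphomas. The WT thymus at 101, the shallow replicate 2, overlapped both lymphoma groups. Its log2 difference from WT was -0.38 in Atm-/- lymphomas (95% interval -1.06 to 0.31, limma adjusted p = 0.348). In Rag2c/c p53-/- lymphomas it was -0.86 (SE 0.32, limma adjusted p = 0.0475), short of the fold asked for. Without WT replicate 2 that difference was -1.16 (limma adjusted p = 0.0246) and was called.

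Among the transcription factors, Pax5 (ENSMUSG00000014030, chromosome 4, 44531145 to 44710487), which fixes the B cell fate, came close to 0 in some lymphomas. It was at 54, 62 and 69 in the WT thymuses, 17, 30, 14, 2 and 13 in the Atm-/- lymphomas and 2, 47, 5, 0 and 7 in the Rag2c/c p53-/- lymphomas. All lymphomas lay below all thymuses, but Rag2c/c p53-/- replicate 2 came near with 47, a value resting on about 13.9 reads. Pax5 fell by 3.41 in Rag2c/c p53-/- lymphomas (SE 1.01, limma adjusted p = 0.0175). This call was lost without any 1 of the WT thymuses, with differences of -3.50, -3.40 and -3.33 and limma adjusted p of 0.0528, 0.055 and 0.0646 without replicate 1, 2 and 3. The size rested on single lymphomas, with -4.17 without Rag2c/c p53-/- replicate 2 (limma adjusted p = 0.00201) and -2.77 without replicate 4, the library at 0 (limma adjusted p = 0.0328), and it was -2.65 with a pseudocount of 4. In Atm-/- lymphomas the difference was -2.28 (95% interval -4.44 to -0.11, limma adjusted p = 0.0803), which was not called, though it was with only those groups in the fit (limma adjusted p = 0.022) or a pseudocount of 4 (-1.97, 0.036).

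Ebf1 (ENSMUSG00000057098, chromosome 11, 44617317 to 45008091), which acts before and with PAX5, was at 49, 49 and 58 in the WT thymuses. The Atm-/- lymphomas had 15, 11, 14, 13 and 18, and the Rag2c/c p53-/- lymphomas had 15, 30, 20, 10 and 9. All 10 lymphomas lay below the thymuses and none reached 0. Ebf1 fell by 1.81 in Atm-/- (SE 0.42, limma adjusted p = 0.00364) and fell by 1.70 in Rag2c/c p53-/- lymphomas (SE 0.42, limma adjusted p = 0.00669). Between the lymphomas the difference was -0.12 (95% interval -0.90 to 0.66, limma adjusted p = 0.879), and its sign turned to 0.12 without Rag2c/c p53-/- replicate 2.

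Pou2af1 (ENSMUSG00000032053, chromosome 9, 51213690 to 51240079), the OCT coactivator also called OBF-1, went a different way in the lymphomas. It was at 391, 260 and 355 in the WT thymuses, at 976, 936, 129, 820 and 351 in the Atm-/- lymphomas and at 60, 34, 196, 237 and 111 in the Rag2c/c p53-/- lymphomas. Atm-/- replicates 1, 2 and 4 were above every other library, while all 5 Rag2c/c p53-/- lymphomas were below every thymus. The log2 difference from WT was 0.62 in Atm-/- lymphomas (95% interval -0.89 to 2.13, limma adjusted p = 0.487). In Rag2c/c p53-/- lymphomas it was -1.70 (SE 0.70, limma adjusted p = 0.0718), which was not called, though it was without replicate 4 (-2.0, limma adjusted p = 0.0455) and with only those groups in the fit (0.0494).

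Between the lymphomas Pou2af1 was higher in Atm-/- than in Rag2c/c p53-/- by 2.32 on the log2 scale (SE 0.61, 95% interval 1.01 to 3.62, limma adjusted p = 0.026). It was the 1 member of 9 called higher there, beside 3.51% of all genes tested, and 0 of 9 were called lower, beside 4.33%. Of the 5 Atm-/- lymphomas 4 lay above all Rag2c/c p53-/- lymphomas, and 0 of 9 members separated the lymphoma groups without overlap, beside 4.48% of all genes wholly lower and 3.85% wholly higher in Atm-/-. The call was lost without Atm-/- replicate 1 (2.08, adjusted p = 0.0667), 2 (2.10, 0.0528) or 4 (2.14, 0.0632) and without Rag2c/c p53-/- replicate 1 (2.13, 0.0623), all by limma. With the 3 WT libraries left out of the fit the limma adjusted p was 0.0601. The other 8 members were not called, with differences from -0.79 for Cd79b to 1.13 for Pax5 (95% interval for Pax5 -0.74 to 3.01), so a difference of 1 or more lay inside the interval for each of them but Ebf1 and Blnk.

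**Figure D2:**
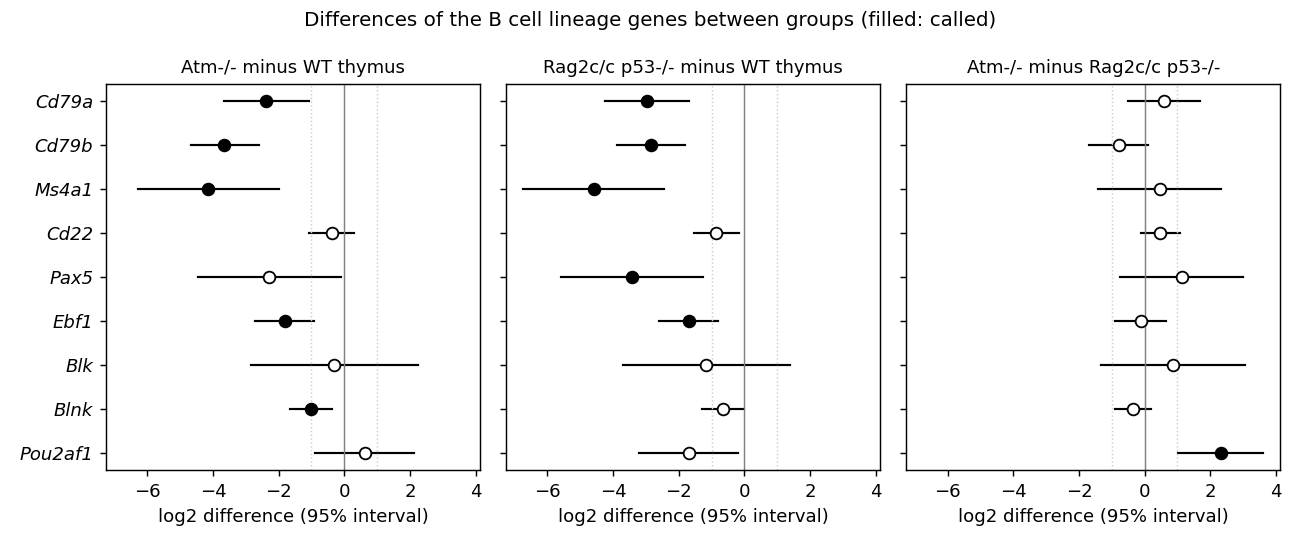
Log2 difference (horizontal axis, log2 of value plus 1) of each gene in the 3 comparisons, with its 95% interval from limma. Filled points were called, dotted lines mark a difference of 1 in either direction. Against WT thymus 5 of 9 members were called lower in each lymphoma group, and Pou2af1 alone was called between the lymphoma groups.

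Of the signalling genes, Blk (ENSMUSG00000014453, chromosome 14, 63372837 to 63417187), a SRC family kinase, had the largest SD of the 9 genes in both lymphoma groups, 396 in Atm-/- and 153 in Rag2c/c p53-/-. It was at 236, 205 and 245 in the WT thymuses, at 608, 671, 17, 887 and 32 in the Atm-/- lymphomas and at 71, 64, 106, 53 and 413 in the Rag2c/c p53-/- lymphomas. The Atm-/- lymphomas split, with replicates 1, 2 and 4 above every thymus and replicates 3 and 5 below every thymus. Of the Rag2c/c p53-/- lymphomas 4 lay below and replicate 5 above. The group differences were small beside this spread, at -0.31 in Atm-/- (95% interval -2.85 to 2.23, limma adjusted p = 0.848) and -1.16 in Rag2c/c p53-/- lymphomas (95% interval -3.70 to 1.38, limma adjusted p = 0.461). The direction in Atm-/- lymphomas was not stable, being 0.53 without replicate 3 and 0.31 without replicate 5.

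Blnk (ENSMUSG00000061132, chromosome 19, 40928927 to 40994535), the adaptor that links SYK to downstream enzymes, was lower by a smaller step. Its values were 164, 179 and 163 in the WT thymuses, 90, 64, 76, 109 and 83 in the Atm-/- lymphomas and 91, 78, 96, 168 and 120 in the Rag2c/c p53-/- lymphomas. All Atm-/- lymphomas were below all thymuses, whereas Rag2c/c p53-/- replicate 4 was among them. Blnk fell by 1.01 in Atm-/- lymphomas (SE 0.30, limma adjusted p = 0.0147), just past the fold asked for. It was not called at -0.97 without WT replicate 2 (limma adjusted p = 0.0527), nor at -0.92 and -0.98 without Atm-/- replicates 2 and 3 (adjusted p = 0.0234 and 0.0293). In Rag2c/c p53-/- lymphomas the difference was -0.66 (SE 0.30, limma adjusted p = 0.0992).

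Per kb of exon, which allows levels to be set side by side between genes, Cd79b led in WT thymus with a mean of 496 normalized counts per kb. Cd79a followed at 199.95 and Pou2af1 at 132, while Pax5 and Ebf1 were last at 6.97 and 5.33. The order was different in Atm-/- lymphomas, where Pou2af1 led at 252 per kb and Blk came next at 164, ahead of Cd79a at 42.7 and Cd79b at 39.6. In Rag2c/c p53-/- lymphomas Cd79b led at 82.6 per kb, with Blk at 52.4, Pou2af1 at 50.1 and Cd79a at 32.8 behind it. Neighbours such as Blk and Pou2af1, or Cd79a and Cd79b in Atm-/- lymphomas, had overlapping libraries, so their order was within the spread. The group means of Ebf1 and Pax5 were at most 1.72 per kb in the lymphomas.

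Cd79a, Pax5 and Ms4a1 varied together among the 10 lymphomas, with Rag2c/c p53-/- replicate 2 highest for Cd79a and Pax5 and Atm-/- replicate 4 at or near the lowest value of each. Cd79a and Pax5 had r = 0.90 (permutation p = 0.00051, adjusted 0.00459) and rho = 0.94 (permutation p = 0.00018, adjusted 0.00162) on the log2 scale. Without the 2 libraries farthest from the median of Cd79a, the same pair, r was 0.85, and with group means taken out it was 0.89. Cd79a and Ms4a1 had r = 0.79 (permutation p = 0.00362, adjusted 0.0163) and rho = 0.78 (permutation p = 0.0102, adjusted 0.0306), with r = 0.84 without those 2 libraries and 0.79 with group means taken out.

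For the other members no Pearson r with Cd79a passed the adjustment. Cd79a and Blnk ran against each other, with r = -0.70 (permutation p = 0.0205, adjusted 0.0615), rho = -0.81 (permutation p = 0.00683, adjusted 0.0306), r = -0.71 without the 2 libraries and r = -0.65 with group means taken out. For Cd79b, Cd22, Blk and Pou2af1 r with Cd79a lay between -0.18 and -0.01 (permutation p of 0.615 to 0.987) and rho between -0.19 and 0.10 (permutation p of 0.587 to 0.938). These values rest on the same 2 libraries, since without them r was -0.49, 0.56, 0.15 and 0.72, and with group means taken out of all 10 lymphomas it was 0.19, -0.54, -0.27 and -0.43. For Ebf1 r was 0.47 (permutation p = 0.168, adjusted 0.302), rho 0.35 (permutation p = 0.317, adjusted 0.571) and r without the 2 libraries 0.12, with 0.55 when group means were taken out. Blk and Pou2af1 had r = 0.61 (permutation p = 0.0681, adjusted 0.153) and rho = 0.48 (permutation p = 0.165, adjusted 0.371), with r = 0.35 without Atm-/- replicates 2 and 4 and 0.66 with group means taken out. In all 9 relations were computed, each with 100000 permutations, and they were chosen after the values had been seen. Depth differed between the libraries and its part in these relations was not tested.

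**Figure D3:**
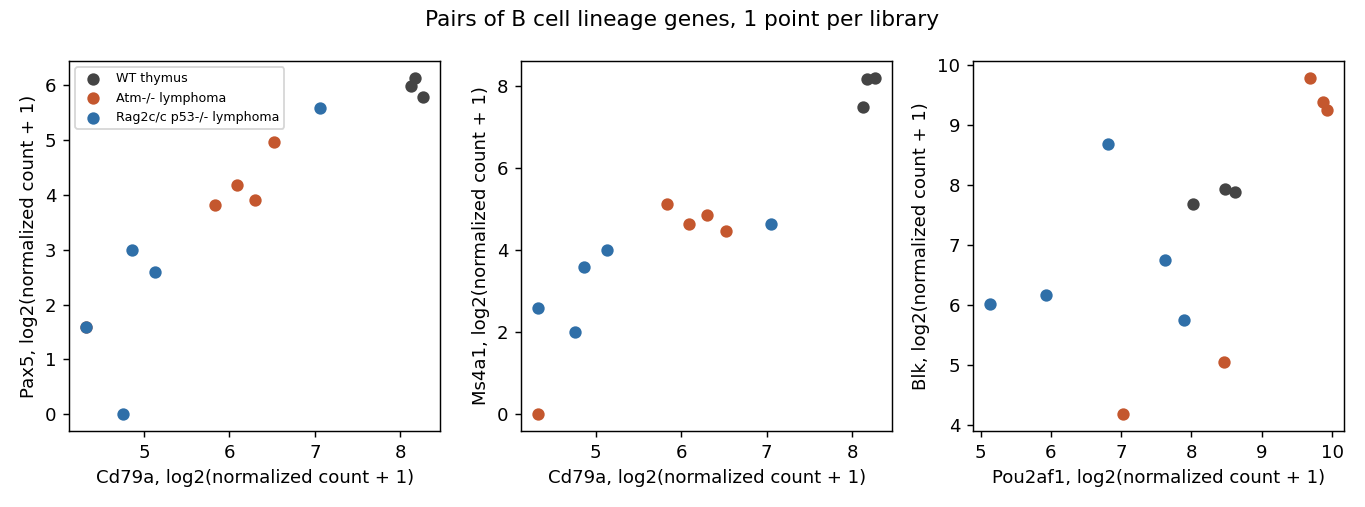
Log2 of normalized count plus 1 of 2 genes in each of the 13 libraries, colored by group. Cd79a and Pax5 rise together among the lymphomas, Cd79a and Ms4a1 less closely, and for Pou2af1 and Blk 3 Atm-/- lymphomas stand at the top right. Atm-/- replicate 4 and Rag2c/c p53-/- replicate 1 share a point in the first panel, with Cd79a at 19 and Pax5 at 2.

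Atm-/- replicates 1, 2 and 4 stood highest for both Blk and Pou2af1, with 608, 671 and 887 of the former and 976, 936 and 820 of the latter. Replicates 3 and 5 had 17 and 32 of Blk and 129 and 351 of Pou2af1. The 351 lay within the 260 to 391 of WT thymus. Ptcra, the pre-T cell receptor alpha chain of immature thymocytes, was at 1134, 8050 and 5456 in Atm-/- replicates 1, 2 and 4. It was at 143 and 243 in replicates 3 and 5. In WT thymus Ptcra was at 1107, 1420 and 1153. The lymphoma with the highest Blk among the Rag2c/c p53-/- group, replicate 5, had Ptcra at 531 and Pou2af1 at 111. Replicate 4 of that group had its highest Ptcra, 3120, and its highest Pou2af1, 237, with its lowest Blk, 53. Ptcra was picked from a list of 12 T cell genes, which did not all split in this way. In Atm-/- replicates 1, 2 and 4 against 3 and 5, Rag1 was at 6304, 5755 and 7116 against 5496 and 2383. Cd8a overlapped, at 6145, 20872 and 7257 against 9366 and 5674. Cd4 went the other way, at 8127, 11240 and 1201 against 17284 and 15187. These values were set side by side after they had been seen and were not tested.

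Other genes of the B lineage were counted from the same fits, in 5 lists with 32 genes tested. Of these 18 were called lower and 1, the plasma cell gene Sdc1, higher in each lymphoma group against WT thymus. Over all genes tested, 17% were called lower and 12.6% higher in Atm-/- lymphomas. In Rag2c/c p53-/- lymphomas these shares were 13.9% and 9.77%. Of the 10 surface receptors, 6 were lower in the Atm-/- and 5 in the Rag2c/c p53-/- lymphomas. Fcer2a, the low-affinity IgE receptor, was lower, with log2 differences of -3.85 and -4.04 (limma adjusted p = 0.0024 and 0.0023).

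Cd72, an inhibitory receptor, was not called in either comparison and ranged from 65 to 122 in the Atm-/- and from 115 to 605 in the Rag2c/c p53-/- lymphomas, against 172 to 229 in WT thymus. Of the 8 further genes of receptor signalling, 6 were lower in the Atm-/- and 7 in the Rag2c/c p53-/- lymphomas. Bank1, a scaffold of this pathway, was lower, with log2 differences of -1.88 and -2.95 (limma adjusted p = 0.0061 and 0.000452). Syk, the kinase that CD79 chains recruit, was lower, with differences of -2.33 and -1.10 (limma adjusted p = 1.54e-05 and 0.0037), and it was also lower in Atm-/- than in Rag2c/c p53-/- lymphomas, with a difference of -1.23 (limma adjusted p = 0.00263). Plcg2, a phospholipase of the pathway, was in contrast higher in Atm-/- than in Rag2c/c p53-/- lymphomas by 1.74 (limma adjusted p = 0.0213).

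Of 9 further transcription factors, 3 were lower in each comparison with WT thymus. Bach2, a repressor with roles in B and T cells, had the lowest difference of them, from a mean of 1776 in WT thymus to 61.6 in the Atm-/- and 53.4 in the Rag2c/c p53-/- lymphomas (log2 difference -4.97 and -5.16, limma adjusted p = 6.16e-06 and 1.02e-05). Bcl11a, needed for early B cells, was lower, with differences of -3.08 and -3.98 (limma adjusted p = 0.000228 and 6.01e-05). Vpreb1, a surrogate light chain gene, was the 1 of 4 in its list to be tested, and it was lower, with differences of -2.76 and -1.64 (limma adjusted p = 0.000701 and 0.02). Of the 4 immunoglobulin constant genes tested, Igkc and Iglc2 were lower in both groups. Ighm, the mu heavy chain, was not called (-0.89 and -1.10, limma adjusted p = 0.443 and 0.362), and it ranged from 2145 to 27278 in the Atm-/- and from 905 to 22279 in the Rag2c/c p53-/- lymphomas, against 8574 to 12750 in WT thymus.

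The plasma cell list did not move in a single direction. Of its 4 genes tested, Igj, the J chain, and Prdm1, the regulator of plasma cell fate, were lower in both groups. Sdc1, which encodes syndecan-1 and is also found on cells other than plasma cells, was higher, from 45 to 54 in WT thymus to 1267 to 2559 in the Atm-/- and 1004 to 2795 in the Rag2c/c p53-/- lymphomas. Its log2 differences were 5.12 and 4.94 (limma adjusted p = 2.07e-07 and 4.43e-07), and Tnfrsf17, a receptor of plasma cells, was at 0 in all 5 Atm-/- lymphomas and at 0 to 5 elsewhere.

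**Figure D4:**
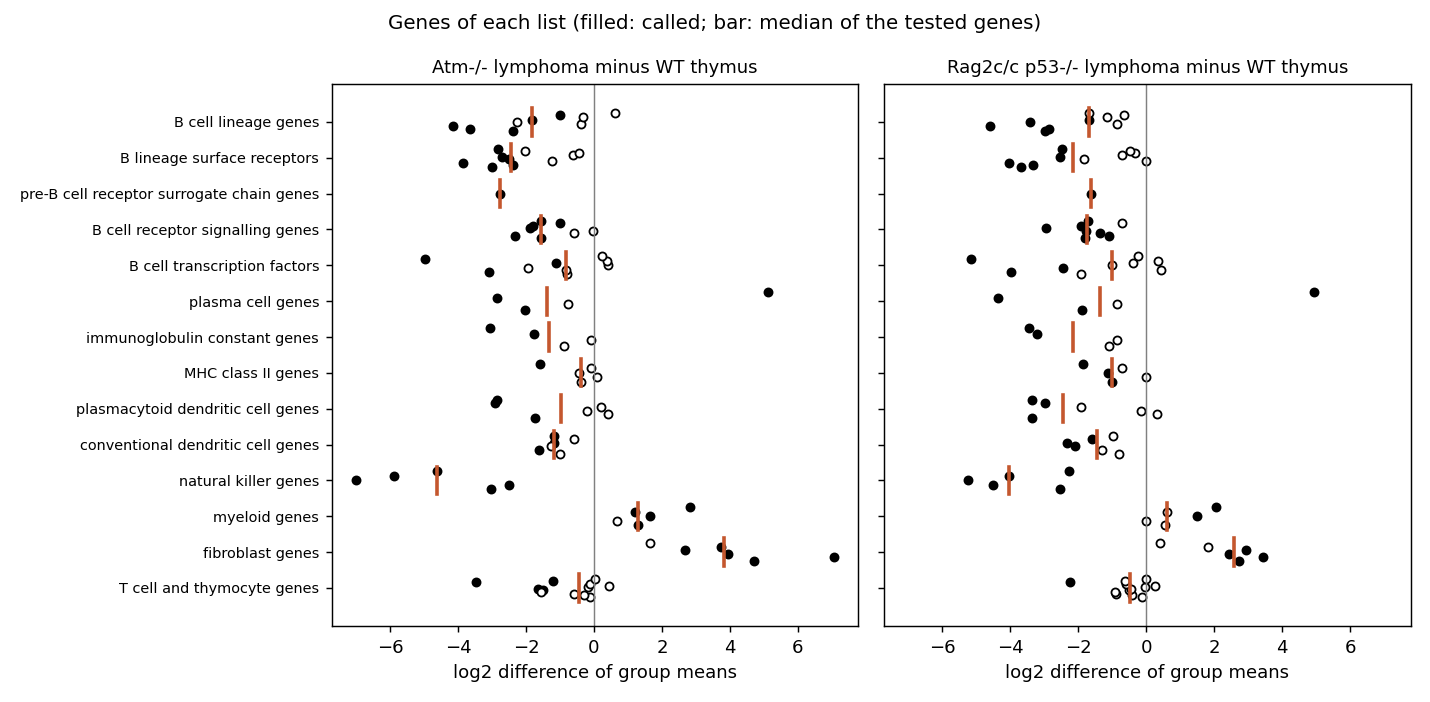
Log2 difference of the group means (horizontal axis) for each tested gene of the lists (rows), for each lymphoma group against WT thymus. Filled points were called, and bars mark the median of a list. B lineage lists and natural killer genes lie mostly to the left, myeloid and fibroblast genes to the right.

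Some genes of other cell types differed as well. Their counts, here and below, stand beside 17% of all genes tested called lower and 12.6% higher in Atm-/- lymphomas. In Rag2c/c p53-/- lymphomas these shares were 13.9% and 9.77%. All 5 natural killer genes were lower in both lymphoma groups, with a summed level of 963 to 1108 in WT thymus, 21 to 80 in the Atm-/- and 41 to 80 in the Rag2c/c p53-/- lymphomas. Ncr1, a defining marker of natural killer cells, was low in WT thymus too, at 16, 10 and 12. It was at 0 in Atm-/- replicates 1, 2 and 4 and in Rag2c/c p53-/- replicate 2. In the last of these a count of 0 allows up to 3 reads or a value of 10.13. Of 6 plasmacytoid dendritic cell genes, 3 were lower in both groups, with summed levels of 6367 to 7715, 6167 to 9082 and 2191 to 9489 in the same order of groups. These sums were mostly Ly6d, Bst2 and Tcf4, which were not called. Siglech, a defining marker of plasmacytoid dendritic cells, was at 143 to 249 in WT thymus, 36 to 68 in the Atm-/- and 13 to 24 in the Rag2c/c p53-/- lymphomas.

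Of 6 conventional dendritic cell genes, 3 were lower in each group, with summed levels of 538 to 868 in WT thymus, 182 to 492 in the Atm-/- and 165 to 647 in the Rag2c/c p53-/- lymphomas. Of 5 MHC class II genes, 1 and 3 were lower, beside 17% and 13.9% of all genes tested. Their summed levels were 10977 to 11451, 9366 to 10599 and 4830 to 9010. Thymic epithelial genes were lower for 3 and 4 of 6, with summed levels of 504 to 845, 71 to 525 and 67 to 908. The sum of 908, in Rag2c/c p53-/- replicate 2, held 875 of Epcam. Psmb11 of the cortical epithelium was at 0 in all 5 Atm-/- lymphomas and 4 of 5 Rag2c/c p53-/- lymphomas. Of 3 endothelial genes tested, 0 and 2 were lower, with summed levels of 3607 to 3720, 3134 to 6186 and 1820 to 5255. These sums were almost wholly Pecam1, which was at 3529 to 3660, 3036 to 6173 and 1809 to 5252 and was not called.

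In the other direction, 4 and 2 of 5 myeloid genes were higher, with summed levels of 3168 to 3379 in WT thymus, 5979 to 9863 in the Atm-/- and 3600 to 7386 in the Rag2c/c p53-/- lymphomas. Fibroblast genes were higher for 5 and 4 of 6, with summed levels of 204 to 218, 3783 to 18172 and 642 to 2336. Of 4 erythroid genes tested none was called, with summed levels of 1002 to 2203, 877 to 6308 and 797 to 4357. T cell genes were lower for 4 and 1 of 12, beside 17% and 13.9% of all genes tested. Their summed levels were 217255 to 348448, 132037 to 195741 and 165889 to 232687. Rag1 was called in both groups, and alone in Rag2c/c p53-/- lymphomas. Its values were 48182 to 70834, 2383 to 7116 and 5620 to 23493 in the same order of groups. Cd3e, Cd3d, Cd3g, Lck, Thy1 and Tcf7 were not called in either group. The 9 B cell lineage genes themselves summed to 1954 to 2477 in WT thymus, 518 to 2090 in the Atm-/- and 564 to 902 in the Rag2c/c p53-/- lymphomas. In Atm-/- replicates 1, 2 and 4, with sums of 1961, 1986 and 2090, most of the sum was Blk and Pou2af1. Blk was at 608, 671 and 887 there, and Pou2af1 at 976, 936 and 820. The part of any of these cell types in the B lineage results was not tested.

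The genes whose pattern was most like the mean of the 9 members over the 13 libraries were Parp3 (r = 0.972), S100a8 (0.965), Pglyrp2 (0.955), Ngp (0.955), S1pr4 (0.954), Ms4a4b (0.945), Igkv4-59 (0.944) and Pik3ca (0.944). The points share the step from thymus to lymphoma. S100a8 and Ngp are known from neutrophils, and S100a8 was at 253 to 332 in WT thymus and 2 to 30 in the lymphomas, with the 30 in Rag2c/c p53-/- replicate 2. With group means taken out, the genes most like the members were Zfp809 (r = 0.935), Elk4 (0.892), 1700028K03Rik (0.892), Gm9670 (0.888), Gm6733 (0.886), Mtmr14 (0.883), Zfp345 (0.876) and Armc12 (0.873). None of these 8 was on a B lineage list, but the further B lineage lists held 32 of the 15872 genes tested. With so few listed genes this absence says little. The points share 13 libraries of unequal depth.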

How the data were processed

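RNA sequencing values of 13 mouse libraries were analysed in 3 groups taken from the labels: 5 Atm-/- thymic lymphomas, 5 Rag2c/c p53-/- thymic lymphomas and 3 WT thymuses. Per the labels, RNA was prepared with RNeasy and libraries with the TruSeq Stranded mRNA kit. The submitters' processing notes name STAR 2.4.0g1, Picard, DESeq2 1.6.3, bcl2fastq 1.8.3 and GRCm38, while the counting program and its strand setting are not given in the sources used here. The values deposited by the authors are normalized read counts rounded to whole numbers, taken as scores on a scale of size factors and not as raw counts. Their column totals were 19788898 to 21591289, so no count model was used, and the worth of 1 read was estimated from the steps between low values. The table also holds columns of the authors' own comparisons (fold changes and p-values), which were not used.

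Of the 43629 genes, 15872 reached 10 in 3 or more libraries and were tested with limma 3.58.1 in R 4.3.3, on log2(value + 1), with trend and robust moderation and all 3 groups in 1 fit. All 9 members passed this filter, and all 9 would pass on the lymphomas alone. Genes were called at a Benjamini-Hochberg adjusted p under 0.05 over all genes tested, a log2 difference of 1 or more in size, and a group mean that reached 10 on either side. The added 1 shrinks log2 differences of low genes, while a library with few or no reads can enlarge them. For Pax5 in Rag2c/c p53-/- against WT the difference was -3.41, and -2.77 without replicate 4. Single members were also compared by two-sided exact permutation tests with scipy 1.17.1. The script was checked on simulated data.

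The members, the lists and the tests were chosen with earlier results of these data known. All members are named, and of each further list up to 4 called genes with the largest differences could be named, not all of which are printed, and 1 gene of the surface receptor list is not reported here by name. Defining markers of other cell types, Cd72, Ighm, Ptcra and Sdc1 are given for their values, and Cd72, Ighm and Ptcra were picked after these had been seen. The 8 genes most like the mean of the members, with and without group means, are named. Exon lengths came from GENCODE vM21 and promoters from RefSeq GRCm38.p6, which gave none for Cd79b, Ms4a1 and Blk. Annotated genes that overlap Pax5, Ms4a1, Cd22 and Ebf1 had mean values of at most 0.38. Iglc1, Adgre1 and Epb42 of the lists were not analysed here, and Jchain was taken as Igj. The alternatives covered pseudocount, filter, scaling, moderation, fold threshold, groups in the fit and each library left out. Intervals and floors cover counting or sampling error only.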

Additional observations from a re-analysis of the deposited data

Results flagged for a closer look

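Among the 18 sets of 5 lymphomas looked at, 9 genes in each of 2 groups, 3 had a value far above the others, where the gap to the next library over the whole range passed 0.71. Chance gives such a value in about 5% of groups only where values are normally distributed. The gaps were taken on normalized counts and not on the log2 scale of the other tests. The 3 of 18 can therefore not be set beside that 5%. Cd79a was at 132 in Rag2c/c p53-/- replicate 2, with a gap of 0.867 of the range, and Pax5 was at 47 in the same library, with a gap of 0.851. This library was 1 of the shallowest, and the values rest on about 39.1 and 13.9 reads. Blk was at 413 in Rag2c/c p53-/- replicate 5, with a gap of 0.853, resting on about 510 reads.

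The change of Pou2af1 from WT thymus was called different between the lymphoma groups, though the call was lost without some single libraries. The difference of Atm-/- from Rag2c/c p53-/- lymphomas was 2.32 on the log2 scale (limma adjusted p = 0.026), with 4 of 5 Atm-/- lymphomas above all Rag2c/c p53-/- lymphomas. The exact permutation test gave an adjusted p of 0.0742.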

How the results depend on the processing

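No paired analysis was possible because the labels of the lymphomas carry no replicate numbers shared with the WT thymuses. Members called lower in Rag2c/c p53-/- against WT numbered 3 with a mean of at least 50 asked for, since Pax5 and Ebf1 were then not among the 7 members tested. Members called higher in Atm-/- against Rag2c/c p53-/- numbered 0 with only those groups in the fit and 0 without both shallowest libraries (chosen after seeing the data, Pou2af1 at 1.93, limma adjusted p = 0.0636), where the cause was not tested. With each library left out in turn, members called lower were 4 to 5 in Atm-/- and 4 to 6 in Rag2c/c p53-/- against WT, and members called higher in Atm-/- against Rag2c/c p53-/- were 0 to 1. The sign turned for Blk in Atm-/- against WT without Atm-/- replicate 3 (0.53) or 5 (0.31), with -0.88 to 0.53 over single libraries left out, and for Ebf1 in Atm-/- against Rag2c/c p53-/- without Rag2c/c p53-/- replicate 2 (0.12), with -0.29 to 0.12 over single libraries left out, and without both shallowest libraries (0.12). Pax5 in Atm-/- against WT was called with a pseudocount of 4 (-1.97, limma adjusted p = 0.036) and with those groups alone (-2.28, 0.022), as was Pou2af1 in Rag2c/c p53-/- against WT with those groups alone (0.0494) and without Rag2c/c p53-/- replicate 4 (-2.0, 0.0455). Blnk in Atm-/- was not called with a pseudocount of 4 (-0.99) or without both shallowest libraries (-0.97). Of the alternative values of single genes 473 kept direction and call, 7 gained a call, 14 lost 1 and 4 turned. Low values of Pax5, Ms4a1 and Ebf1 are limited by depth in the shallowest libraries.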
